A study of Parascaris univalens with 7 samples.

Results

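The regions described here are close neighbouring genes on 1 strand in the genome of Parascaris univalens, a horse roundworm. For each gene the transcript of highest mean level over 5 tissues was taken, genes were ordered by start position on each scaffold, and a pair was kept when both genes lay on the same strand with a gap of 0 to 1000 nt. Of 14143 neighbouring pairs, 568 met these conditions, and they held 1096 of the 15027 genes, on 204 scaffolds. The downstream gene, the one transcribed second, carried a spliced leader (SL) mark in 131 pairs and none in 437. For comparison there were 5552 same-strand neighbours with a gap over 1000 nt (called distant pairs), 341 convergent and 247 divergent pairs at 0 to 1000 nt on opposite strands, and 194 overlapping same-strand pairs. A further 1826 neighbouring pairs held a gene with no strand and were not used.

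Nematode operons are groups of genes on 1 strand that are transcribed from a shared promoter as a single long RNA. That RNA is cut into separate messages by 3′-end formation of each upstream gene together with trans-splicing, in which a short spliced leader from another RNA is joined to the 5′ end of the next message. Many nematode genes outside operons receive a spliced leader too, so the leader alone does not identify an operon, and in C. elegans the genes of an operon lie close together. The names below use the deposited annotation texts, and the C. elegans roles and operons are given as background.

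The study sequenced rRNA-depleted total RNA from testis (male germline), ovary (female germline), embryo, intestine and carcass of the North American wildtype strain, with 1 library per tissue. The labels class embryo, intestine and carcass alike as male somatic material. Adult worms came from horse intestine, and carcass is the label's word for a dissected somatic sample that can hold several cell types. Mixed samples gave a PCR library of spliced leader ends and a TeloPrime library, which captures capped 5′ ends; these served for marks per transcript (SL and Telo) and no level per tissue.

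Levels are the authors' RPKM, read numbers scaled to transcript length and library size, to 1 decimal. With 1 library per tissue there is no replicate error, and no difference between tissues has a test. The steps of low values corresponded to about 11900000 reads in embryo to 31800000 in ovary, and 3 reads on a transcript of median length (1325 nt) were worth 0.0712 RPKM in ovary and 0.190 in embryo. Summed levels of each fixed marker list were highest in the labelled tissue: major sperm protein genes in testis (11989 RPKM), chondroitin proteoglycan genes in ovary (32067), collagen and troponin genes in carcass (41234), and vitellogenin and aminopeptidase genes in intestine (5749, against 1118 in carcass). No marker was fixed for embryo. Fewer cells of a type and less RNA per cell cannot be told apart in such tissue samples.

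The first question was whether closeness on 1 strand went with the spliced leader mark on the second gene, as in an operon. It did not. The downstream gene was marked in 131 of 568 close pairs, or 23.1% (95% exact binomial interval 19.7 to 26.8), against 2182 of 5552 distant pairs, or 39.3% (38.0 to 40.6). Across all genes 33.4% were marked, and in the close convergent and divergent pairs the shares lay between 29.6% and 36.1%. The upstream gene of the close pairs was marked in 34.0%, against 38.1% in distant pairs. These intervals cover counting error only. The working name of candidate operons was thus not borne out by this mark for the pairs as a whole, and they are called close pairs here. In 86 close pairs (15.1%) a gene overlapped another gene on either strand, and in 5 other transcripts of the same 2 genes overlapped.

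The share was lower within 1000 nt than beyond it and was lowest at the smallest gaps. It was 9.68% of 62 pairs at 0 to 100 nt, and between 20.3% and 28.3% in the bins from 101 to 1000 nt. In the next bin, up to 1500 nt, it was 43.9% of 296 pairs and beyond 20000 nt it was 36.4% of 755. Between the bins on either side of 1000 nt it thus rose from 28.3% (20.2 to 37.6) to 43.9% (38.2 to 49.8). In steps of 50 nt from 801 to 1000 nt, the mark was on 5 of 28, 11 of 40, 8 of 20 and 8 of 25 pairs. With so few pairs per step, the gap at which the rise began cannot be placed. The mark on the upstream gene was also lowest at 0 to 100 nt, at 22.6%. Genes of opposite-strand pairs with gaps of 0 to 100 nt were marked in 41.7%.

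**Figure D1:**
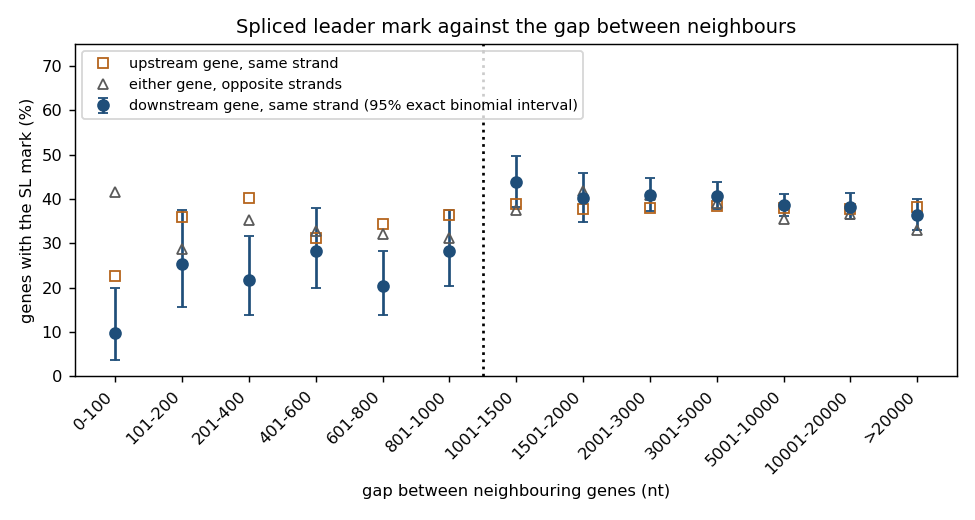
Percentage of genes with the spliced leader mark (y axis) against the gap between neighbouring genes in nt (x axis, unequal bins; the dotted line is at 1000 nt). Filled circles are downstream genes of same-strand pairs with 95% exact binomial intervals, squares their upstream genes and triangles both genes of opposite-strand pairs; the circles run from 9.68% at 0 to 100 nt to 43.9% in the first bin past 1000 nt.

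Level, annotation and exon number moved with the mark, and their part in the lower share was not tested. Low genes were rarely marked: among downstream genes with a mean of at most 1 RPKM the share was 1.98% in close and 7.36% in distant pairs. At a mean of 5 to 20 RPKM it was 34.3% in 201 close and 46.3% in 2387 distant pairs, and above 20 RPKM 31.8% and 48.3%, so the close pairs had the lower share at each level. In 49 of 568 close pairs the downstream gene had a single exon, and none of these carried the mark. In distant pairs it had a single exon in 101 of 5552, and only 4 of these carried the mark.

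Annotation separated the close pairs further. Both texts were informative and largely the same (at least 50% of the words of the shorter text shared) in 188 close pairs (33.1%) and in 557 of the 5552 distant pairs. In these like-named close pairs, which can be tandem copies or pieces of 1 gene model, the downstream gene was marked in 13.8% (9.24 to 19.6), against 28.7% of the like-named distant pairs. In the 235 pairs with an uninformative text, such as hypothetical protein, it was marked in 47, against 36.5% of such distant pairs. In the 145 close pairs with 2 informative and unlike texts, it was marked in 58 (interval of the share 32.0 to 48.5%), near the 43.8% of the 2702 distant pairs of that kind. Among pairs of genes with different names, the lower share of the close pairs was therefore not seen.

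The 2 marks together left most second genes with no recorded 5′ end. Of the 568 downstream genes, 109 had the SL mark alone, 22 had both marks and 59 the Telo mark alone. Neither mark was present for 378, or 66.5%, against 52.8% in distant pairs. Both genes of the pair carried the SL mark in 69 pairs, and in 62 the downstream gene did so while the upstream gene did not.

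In C. elegans, the genes of an operon are typically separated by short gaps, so the distribution of gaps was examined in steps of 50 nt. Same-strand pairs were most frequent at 51 to 150 nt, with 96 pairs, against 49 convergent and 25 divergent pairs in that window. Of the 96, 20 had a marked downstream gene, 36 were like-named, 36 had an uninformative text and 24 had 2 unlike names. Among these 24 the mark was on 10. Most pairs of that window were thus like-named or had an uninformative text, and most lacked the mark. The same held for all 568 close pairs, with 188 like-named, 235 with an uninformative text and 131 marked. Median gaps were 560 nt with and 503 nt without the mark.

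**Figure D2:**
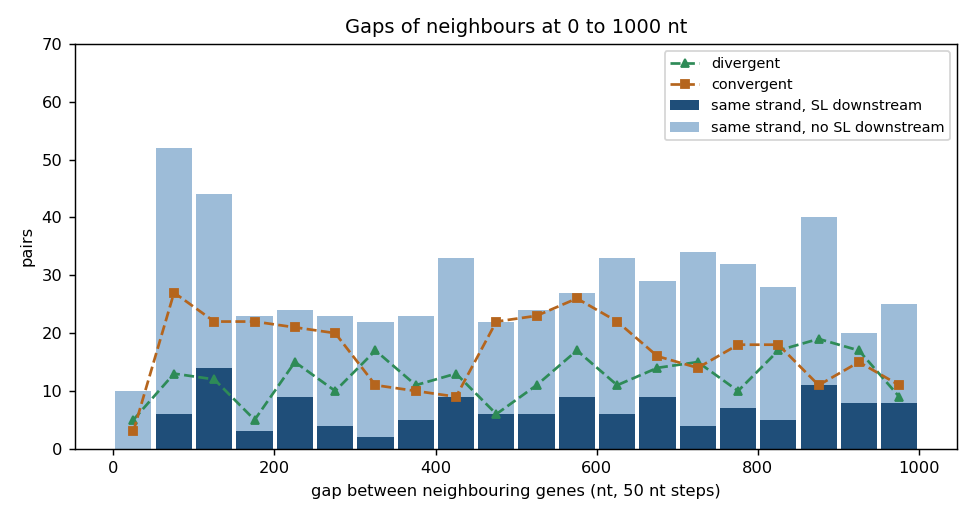
Number of neighbouring pairs (y axis) against the gap in steps of 50 nt (x axis, 0 to 1000 nt). Stacked bars are same-strand pairs with the mark on the downstream gene (dark) and without it (light), and lines are opposite-strand pairs; the tallest bars are the 52 same-strand pairs at 51 to 100 nt and the 44 at 101 to 150 nt.

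The 4 marked pairs with the smallest gaps and informative texts included 3 that joined differently named genes. A putative NADH dehydrogenase flavoprotein (PgR002_g156), a respiratory chain component, was 62 nt upstream of a glutamate-gated chloride channel (PgR002_g157). The upstream gene had 14.3 RPKM in testis, 34.8 in ovary, 26.7 in intestine, 34.9 in carcass and 26.7 in embryo. The channel had 1.0, 3.1, 0.4, 21.0 and 1.5 RPKM in the same order of tissues, so it was high in carcass while the flavoprotein gene was spread over all 5. The other 3 were a pair of long-chain-fatty-acid-CoA ligase 5 genes at 82 nt (PgR137_g001 and PgR137_g002), DNA polymerase epsilon subunit 2 and a PRKCA-binding protein at 84 nt (PgR165_g007 and PgR165_g008), and a glutamate-proline tRNA ligase and U3 small nucleolar RNA-associated protein 14 at 94 nt (PgB24X_g009 and PgB24X_g010).

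Just inside the limit, the 4 marked pairs with informative texts had gaps of 951, 962, 966 and 984 nt, and just outside it 1006, 1007, 1010 and 1014 nt. The last of those inside joined the ubiquinone synthesis gene coq-6 (PgR026_g090) to a Mediator gene, mdt-29 (PgR026_g089). The last of those outside joined RNA polymerase II subunit RPB3 (PgR053_g034) to the spliceosome gene prp4 (PgR053_g035).

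The second question was whether the genes of a close pair had similar levels across tissues. Similarity was Pearson's r of log2(RPKM + 1) over the 5 tissues, for pairs in which each gene reached 1 RPKM in some tissue. It is a description: each r has 5 points, all pairs share the same 5 libraries and their depths, and no p-value is given. The median r was 0.625 in 128 marked close pairs (quartiles 0.25 and 0.886), 0.770 in 376 close pairs without the mark (0.353 and 0.927) and 0.377 in 4953 distant pairs (-0.137 and 0.763). An r of at least 0.8 was reached by 35.2%, 46.8% and 22.0% of these pairs, and r was below 0 in 23, 57 and 1561 of them. Both genes were highest in the same tissue in 46.1%, 53.5% and 33.7%.

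Median r was thus higher in close than in distant pairs, and lower in marked than in unmarked close pairs. With SL on both genes it was 0.523 in 69 pairs, with SL downstream alone 0.747 in 59, with SL upstream alone 0.701 in 121 and with SL on neither 0.784 in 255. The median of pairs marked downstream alone was thus near that of pairs with no mark, and the lower median was that of pairs with both genes marked. The intervals of these medians overlapped, at 0.577 to 0.836 with downstream alone and 0.387 to 0.705 with both, so their order is not settled. An r below 0 was seen in 20.3% of pairs marked downstream alone and in 15.9% of those with both marked. Like-named pairs had a median r of 0.851 in 173 close pairs and 0.672 in 481 distant ones. Their part in the order of marked and unmarked pairs was not tested. Reads that match both copies can be counted at either gene, and how they were counted is not given in the sources used here. In pairs with 2 informative unlike texts, the medians were 0.669 with the mark (57 pairs), 0.650 without it (84 pairs) and 0.372 in distant pairs (2532). In that set r was below 0 in 6 marked pairs (10.5%) and in 17 unmarked pairs (20.2%).

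**Figure D3:**
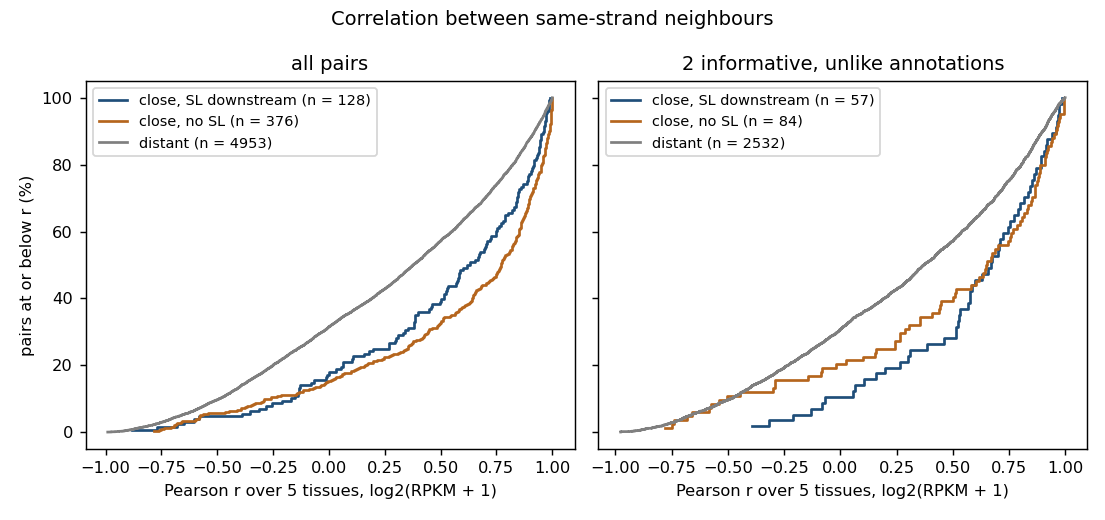
Cumulative percentage of pairs (y axis) at or below each Pearson r over 5 tissues (x axis), for all pairs (left) and for pairs with 2 informative unlike annotations (right). Lines are marked close, unmarked close and distant pairs; both close lines lie to the right of the distant one over most of the range, and on the right their medians are 0.669 and 0.650 against 0.372.

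A raised r was not limited to same-strand pairs. Close divergent pairs, whose genes start next to each other and are read outward, had a median r of 0.599 in 214 pairs, and 0.678 in the 102 with unlike names. Close convergent pairs, whose ends face each other, had 0.387 and 0.345. With the deposited values, marked same-strand pairs and divergent pairs thus had similar medians. In same-strand pairs the median moved up and down within 1000 nt, with 0.829 at 0 to 100 nt, 0.582 at 401 to 600 nt and 0.686 at 801 to 1000 nt. It was 0.580 in the 566 pairs past 1000 and up to 2000 nt, and 0.266 beyond 10000 nt. In the 13 pairs at 0 to 100 nt with 2 informative unlike texts it was 0.567, below the 0.829 of all pairs at that gap.

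**Figure D4:**
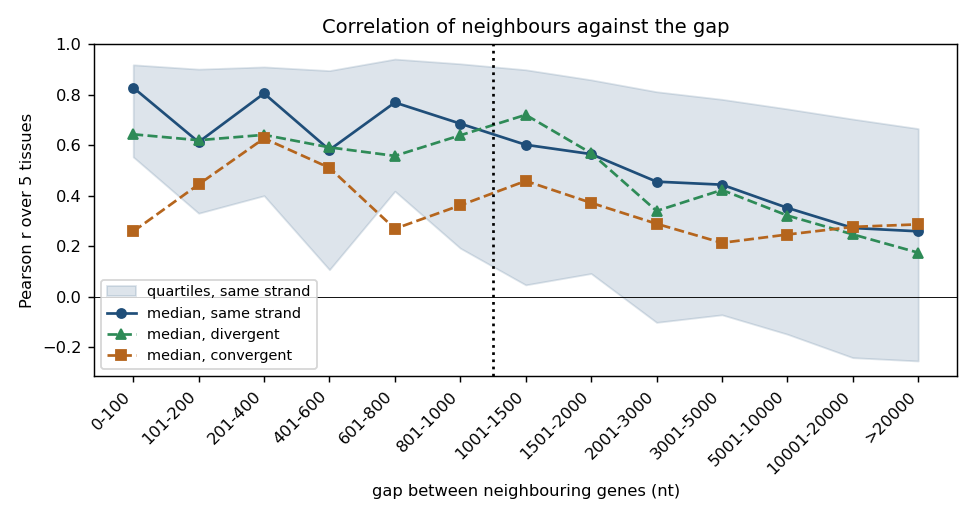
Median Pearson r over 5 tissues (y axis) against the gap in nt (x axis, unequal bins; the dotted line is at 1000 nt). Circles are same-strand pairs with the quartile range shaded, triangles divergent and squares convergent pairs; the same-strand median moves between 0.582 and 0.829 below 1000 nt and is 0.259 beyond 20000 nt.

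The absolute r depended on how libraries were scaled. With median-of-ratios scaling the medians were 0.268 for marked, 0.634 for unmarked and 0.132 for distant pairs. Close divergent pairs had 0.368 with that scaling, above the marked pairs. Marked close pairs stayed above distant pairs in 25 alternatives, by 0.136 to 0.313.

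The levels of the 2 genes were compared as well. In marked close pairs the median of the mean RPKM was 11.7 upstream and 9.66 downstream, and the median log2 difference, downstream minus upstream, was -0.25. The downstream gene was the higher in 58 of 131. In 58 marked pairs with unlike names it was the higher in 21, or 36.2%, with a median log2 difference of -0.31. The 87 unmarked pairs of that kind had -0.44, with 37 higher downstream. In distant marked pairs the difference was 0.35, with 56.5% higher downstream, and in distant unmarked pairs -0.27, with 44.6%. The 2 genes' mean levels were over 4-fold apart in 35.1% of marked close pairs, 23.6% of unmarked close pairs and 36.0% of distant pairs. In like-named close pairs this share was 13.8%, and in unlike-named unmarked pairs 34.5%.

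The marked pairs of highest level are described first. 60S acidic ribosomal protein P0 (PgB01_g206), part of the ribosomal stalk, lay 578 nt upstream of translationally-controlled tumor protein (PgB01_g205), a growth-related protein of many tissues, on the minus strand. P0 had 209.1 RPKM in testis, 600.9 in ovary, 186.8 in intestine, 97.8 in carcass and 219.1 in embryo. The tumor protein gene had 119.4, 317.7, 187.9, 156.1 and 80.7 RPKM in that order. Both were highest in ovary, the second gene was lowest in embryo, and r was 0.527 with ovary and -0.497 without it. With a hypothetical gene 915 nt further on (PgB01_g204, 55.4 RPKM in ovary and 24.6 or less elsewhere), which also had the mark, these formed 1 of 3 runs of 3 genes in which every downstream gene was marked.

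NADH dehydrogenase 1 alpha subcomplex subunit 2 (PgR057_g006), a part of respiratory complex I, lay 226 nt upstream of proteasome subunit beta type-4 (PgR057_g007). The first occupied positions 81179 to 84927 and the second 85154 to 93916 of scaffold PgR057, on the plus strand, in the authors' coordinates. The NADH dehydrogenase gene had 39.9 RPKM in testis, 132.7 in ovary, 36.2 in intestine, 55.9 in carcass and 33.4 in embryo, and the proteasome gene had 53.2, 160.4, 29.1, 29.3 and 49.8. Both were highest in ovary, and r was 0.789 with ovary and -0.498 without it. The similarity of this pair rested on 1 library.

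The closest of the highest pairs, at 134 nt, joined genes whose human counterparts encode mitochondrial proteins: an inner membrane organizing system protein (PgR117X_g010) and coiled-coil domain-containing protein 58 (PgR117X_g011), at 98830 to 102113 and 102248 to 105613 of PgR117X on the plus strand. The first had 41.2 RPKM in testis, 221.3 in ovary, 38.3 in intestine, 42.2 in carcass and 52.8 in embryo. The second had 12.6, 73.6, 13.3, 11.5 and 12.8. Ovary stood far above the other 4 tissues in both, which were nearly level. The r of 0.984 likewise came from ovary, and without it was -0.045. Both genes carried the SL mark.

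Among the other high marked pairs were 60S ribosomal protein L27a genes (PgR005X_g078 and PgR005X_g079, r 0.961), replication factor C subunit 5 genes (PgR002_g126 and PgR002_g125, r 0.940) and NADH dehydrogenase 1 beta subcomplex genes (PgB12X_g032 and PgB12X_g031, r 0.619, but -0.881 without ovary), all like-named. Myosin-2 essential light chain and transcription factor TFIID subunit 9B (PgR042_g047 and PgR042_g046) had r 0.583. A phenylalanine tRNA ligase and a transmembrane and coiled-coil protein (PgR034_g037 and PgR034_g036) had r 0.723.

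Marked pairs could also differ widely. FAD synthase (PgB07_g025), which makes the flavin cofactor FAD, lay 136 nt upstream of a cystine glutamate transporter (PgB07_g024), and both carried the mark. FAD synthase had 7.0 RPKM in testis, 33.4 in ovary, 10.3 in intestine, 17.0 in carcass and 22.4 in embryo. The transporter had 9.3, 21.8, 339.1, 61.5 and 39.4. The transporter was highest in intestine, where FAD synthase was second lowest. The r of -0.069 was near 0. It was 0.537 without intestine but -0.971 without testis.

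A testis-specific serine/threonine-protein kinase 2 gene (PgB10_g083), of a kinase family known from sperm development in mammals, lay 364 nt upstream of phospholipase b-like 1 (PgB10_g082). The kinase had 20 RPKM in testis (counting interval 19.1 to 20.9), 0.8 in embryo and 0.3 in carcass, and was listed at 0 in ovary and intestine. The phospholipase had 1.1 RPKM in testis, 0.7 in ovary, 6.1 in intestine, 21.9 in carcass and 18.5 in embryo. The levels were thus in opposite tissues, and r was -0.391, but 0.740 without testis, so its sign rested on 1 library. Both genes had the SL mark.

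The lowest r of the pairs named here, -0.881, was that of 2 nicotinic acetylcholine receptor subunits, deg-3 (PgR034_g018) and des-2 (PgR034_g019), 794 nt apart on the plus strand. In C. elegans these subunits form 1 channel and their genes share an operon. The pair was among those named per gene group, and was also picked after its values were seen. Subunit deg-3 had 5.6 RPKM in testis, 19.8 in ovary, 5.9 in intestine, 2.1 in carcass and 18 in embryo, and des-2 had 3.1, 0.4, 8.3, 6.2 and 0.7. The first was high in ovary and embryo, where the second was lowest. Both carried the SL mark, deg-3 was upstream here, and r lay between -0.997 and -0.700 in 22 alternatives. A gene of the pair also overlapped another gene, whose reads cannot be told apart here.

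**Figure D5:**
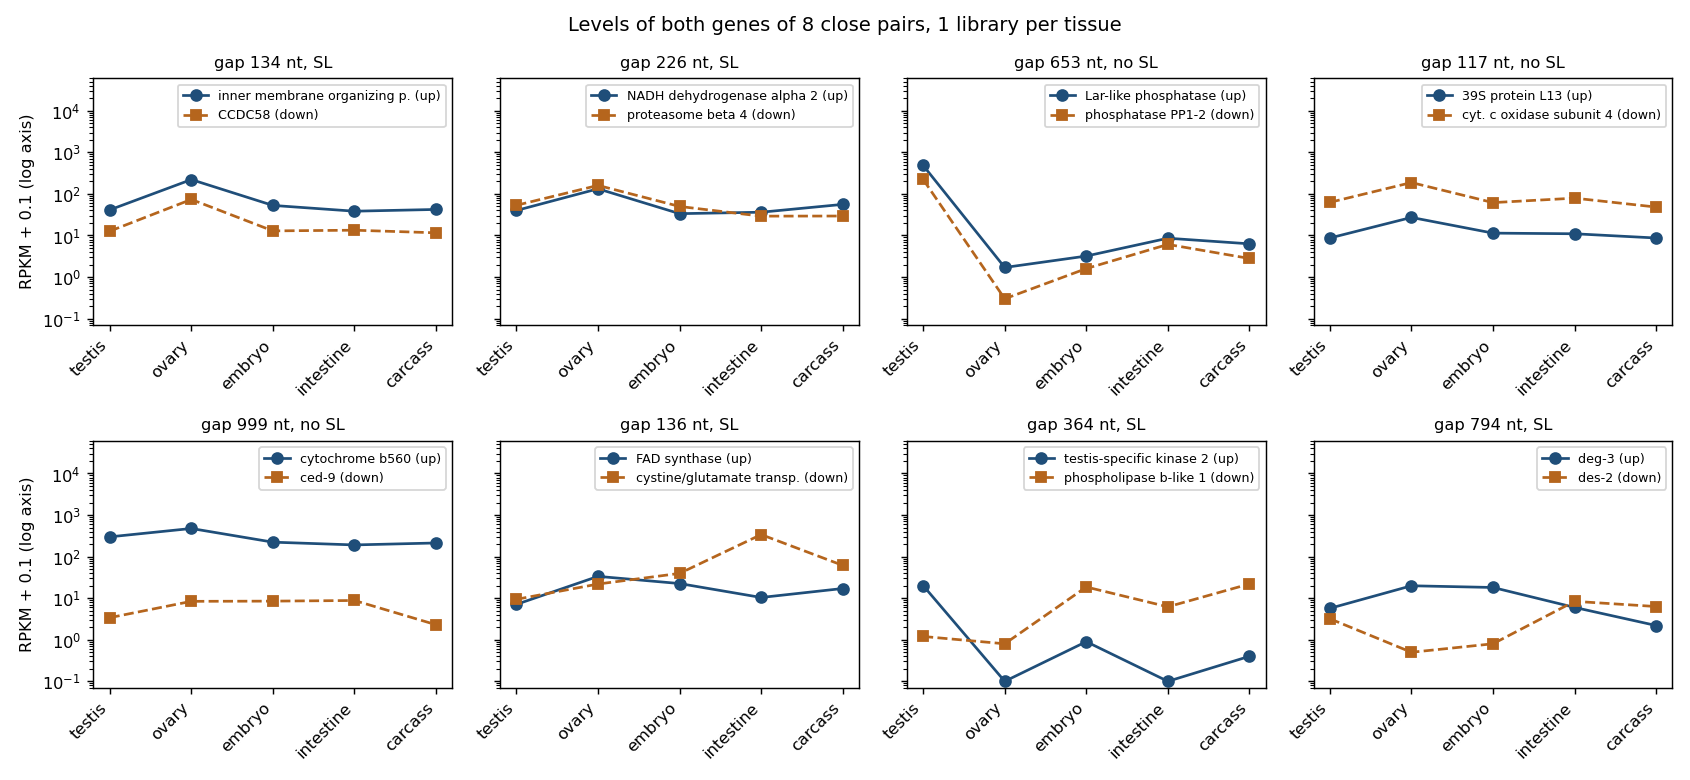
RPKM + 0.1 (y axis, log scale) of the upstream gene (circles, solid line) and the downstream gene (squares, dashed line) of 8 close pairs in the 5 tissues (x axis, 1 library each, so no error bars). The lines run parallel in the Lar-like phosphatase pair (r 0.996), share the ovary peak in the 134 nt pair and diverge in the kinase pair (r -0.391) and in deg-3 and des-2 (r -0.881).

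Operons known in C. elegans were looked up by name. The pair of succinate dehydrogenase cytochrome b560, part of respiratory complex II, and ced-9, the inhibitor of programmed cell death, forms an operon there. Here the 2 genes (PgR008_g166 and PgR008_g167) were neighbours in that order on the plus strand of PgR008, at 2791489 to 2795277 and 2796277 to 2799093, with a gap of 999 nt. The cytochrome gene had 298.8 RPKM in testis, 475.1 in ovary, 191.0 in intestine, 212.8 in carcass and 222.6 in embryo, and ced-9 had 3.3, 8.3, 8.7, 2.2 and 8.4. The first was far higher in each tissue, r was 0.155 (-0.444 without ovary), the upstream gene had the Telo mark and ced-9 had neither mark.

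The other 3 pairs looked up by name were not found as neighbours. Fibrillarin had 1 gene and 40S ribosomal protein S16 none by that text. The 2 ATPase inhibitor genes and the 6 glyceraldehyde-3-phosphate dehydrogenase (GAPDH) genes were on different scaffolds, and choline O-acetyltransferase had no gene by that text. A close pair of GAPDH genes (PgB20_g010 and PgB20_g011, 515 nt, SL on the second) recalled the gpd-2 and gpd-3 genes that share a C. elegans operon. The first had 774.6 RPKM in intestine and 115.9 in testis, the second 177.5 and 27.7, and r was 0.985. Both lay inside a GAPDH gene on the opposite strand, and whether reads kept their strand is not given in the sources used here, so reads of the 3 cannot be told apart.

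Gene groups were then counted by annotation words. Of 824 genes in 9 broadly expressed groups (ribosome, translation, splicing, RNA polymerase, proteasome, respiration, tRNA ligases and vesicle traffic), 75 were in close pairs (9.10%) and 28 in marked close pairs (3.40%). Of 866 genes in 8 groups of more restricted expression, 57 (6.58%) and 11 (1.27%) were. Over all genes the shares were 7.29% and 1.72%, and over genes with an informative text 7.40% and 1.89%. The SL mark itself was on 41.7% of the broad genes, 25.8% of the restricted genes and 33.4% of all genes. Its part in the different shares in marked pairs was not tested. The largest shares in marked pairs were those of tRNA ligases, with 4 of 37 genes, and of the respiratory chain, with 6 of 74. Their intervals were wide, at 3.03 to 25.4% and 3.03 to 16.8%. The respiratory genes included the like-named PgB12X_g032 and PgB12X_g031. Cuticle collagens (0 of 204), sperm genes (0 of 56) and vesicle traffic (0 of 87) had no gene in a marked pair, and none of 69 homeobox genes was in any close pair. Neuronal receptors and peptides, a restricted group, had 6 of 123.

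A few marked pairs of these groups are given with their values. Eukaryotic translation initiation factor 5 (PgR013_g109) had 71.2 RPKM in testis, 94.3 in ovary, 122.8 in intestine, 154.5 in carcass and 62.6 in embryo. The marked hypothetical gene 594 nt downstream (PgR013_g110) had 4.6, 14.5, 1.3, 1.0 and 12.1, and was lowest where the factor was highest, with r -0.768. A mitogen-activated protein kinase kinase (PgR023_g107) and a tm2 domain protein (PgR023_g108), 347 nt apart, were both highest in ovary, at 12.4 and 15.0 RPKM. Their r was 0.905, but lay between 0.079 and 0.947 in 25 alternatives. The MICOS subunit MIC13 (PgB12X_g029), which shapes mitochondrial cristae, preceded the acetylcholine receptor subunit ACR-26 (PgB12X_g028) with r 0.746.

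Tissue enrichment was called for a gene at least 4-fold higher, on log2(RPKM + 1), than in each of the other 4 tissues and with at least 5 RPKM. Of the 1096 genes in close pairs 202 were called (18.4%), against 18.8% of all genes. In testis 104 were called (9.49%, against 9.48%), in ovary 22 (2.01%, against 1.81%) and in intestine 17 (1.55%, against 1.94%). In embryo 33 were called (3.01%, against 1.9%) and in carcass 26 (2.37%, against 3.67%). The members' share was thus near the background over any tissue and in testis.

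Enriched genes of close pairs were often enriched together. Of 153 close pairs with an enriched gene, both genes were enriched in the same tissue in 43 (28.1%), against 165 of 1649 distant pairs and 19 of 74 close divergent pairs (25.7%). Marked pairs gave 2 of 28, and unmarked pairs 41 of 125 (32.8%). Of the 43, 26 were testis pairs, 10 embryo pairs, 3 carcass, 2 intestine and 2 ovary. All 10 embryo pairs were like-named, among them zinc metalloproteinase nas-34 and cuticle collagen lon-3 genes, and 11 of the testis pairs were in eliminated DNA.

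With 2 informative unlike texts 6 such pairs remained, 5 of them in testis and none of those 5 with the mark. A Lar-like tyrosine phosphatase gene (PgR129_g011) lay 653 nt upstream of serine/threonine phosphatase PP1-2 (PgR129_g012). The first had 484.1 RPKM in testis, 1.6 in ovary, 8.5 in intestine, 6.2 in carcass and 3.1 in embryo, and the second 222.5, 0.2, 6.0, 2.7 and 1.5. Both were high in testis and lowest in ovary, with r 0.996, and r was 0.981 over the other 4 tissues without testis. The summed major sperm protein genes had the same order there, with 324.3 RPKM in intestine, 131.7 in carcass, 55.9 in embryo and 7.4 in ovary. This order was thus not particular to the pair, and its source was not tested.

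The remaining 4 testis pairs were picked for their shared enrichment after their values were seen. A tyrosine phosphatase type 12 gene and the microtubule protein futsch (PgB01_g216 and PgB01_g215) had 250.5 and 170.8 RPKM in testis and at most 4.8 elsewhere. A lipoxygenase-like gene and an msp domain gene (PgR003_g229 and PgR003_g230) had 85.3 and 369.4. A serine/threonine kinase and tyrosine phosphatase type 9 (PgR012_g156 and PgR012_g157) had 44.5 and 114.8, and cytidine deaminase and hexokinase-2 (PgR062_g034 and PgR062_g033) 94.7 and 25.6.

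Other unmarked pairs of high level joined 60S ribosomal protein L36 (PgR010_g123) to acyl carrier protein (PgR010_g124) at 53 nt, with r 0.647, and cleavage stimulation factor subunit 2 tau (PgR003_g120) to a BTB/POZ gene (PgR003_g119) with r -0.018. The 2 ovarian abundant message protein genes (PgR099_g019 and PgR099_g018) at 172 nt had 424.2 and 318.9 RPKM in ovary and at most 18 elsewhere. A short-gap pair without the mark, chosen after its values were seen, joined mitochondrial ribosomal protein L13 (PgR087_g028) to cytochrome c oxidase subunit 4 (PgR087_g027) at 117 nt. L13 had 8.6 RPKM in testis, 27.1 in ovary, 10.9 in intestine, 8.6 in carcass and 11.3 in embryo, and the oxidase gene 62.6, 187.7, 79.0, 48.2 and 61.7. Both were highest in ovary, with r 0.966, and 0.632 without ovary.

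Consecutive close pairs formed 495 groups of 2 genes, 29 of 3, 2 of 4, 1 of 5 and 1 of 6. The runs of 5 and 6 genes (on PgR052 and PgR350) held hypothetical genes with at most 4.0 RPKM in any tissue and no SL mark. The 3 runs of 3 in which every downstream gene was marked were the P0 run, 1 on PgR071 and 1 on PgB32. On PgR071 a hypothetical gene with 19.8 RPKM in carcass was followed by a histidine-rich membrane protein ke4-like gene and, 140 nt further, by replication factor C subunit 4, part of the clamp loader of DNA replication. The last had 15.9 RPKM in ovary and 1.4 in carcass, and the ke4-like gene 32.3 and 34.8, so the first 2 genes were highest in carcass and the third in ovary.

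The PgB32 run lay in DNA lost from somatic cells. Parascaris discards part of its genome from the somatic lineages of the embryo, and the deposited marks name the genes lost. The first gene (PgB32_g011, hypothetical) had 170.7 RPKM in testis and 5.4 or less elsewhere, and the third (PgB32_g009, translation initiation factor 3 subunit B) had 79.9 in testis and 3.0 or less elsewhere. The middle gene (PgB32_g010, hypothetical) had 5.4 RPKM in testis, 16.9 in ovary and 19.4 in embryo, and was listed at 0 in intestine and carcass. The middle gene thus differed from both of its neighbours. In all, 34 close pairs (5.99%) lay with both genes in eliminated DNA, 4 of them marked, against 2.14% of distant pairs and 7.29% of close divergent pairs.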

How the data were processed

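The authors deposited 1 table of 40487 transcripts of 15027 genes on 884 scaffolds, with positions, strand, annotation, marks from the 5′-end libraries, marks of eliminated DNA and 5 tissue columns. These deposited values were read as RPKM, since low ones rise in steps of whole reads over length. TopHat2 and Cufflinks are named, per the submitters' processing notes; the build, the strandedness and how multi-mapping reads were counted are not given in the sources used. Per the labels' protocols, total RNA was depleted of rRNA and a TotalScript kit was used.

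Pairs, gaps (start minus end minus 1), r (pseudocount 1, at least 1 RPKM in some tissue in both genes), shares with 95% exact binomial intervals and enrichment calls were computed in Python 3.11.15 with numpy 2.4.6, pandas 2.3.3, scipy 1.17.1 and matplotlib 3.10.9, and checked on simulated data. Depth was estimated from the steps of low RPKM; counting intervals of levels rest on it. Shares and medians are descriptions, with no test over pairs.

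Members, lists and rules were chosen with earlier results of these data known. Pairs were named by rule: the 10 highest marked and 4 highest unmarked pairs with informative texts that were not identical letter for letter (so like-named pairs could enter), the 3 longest marked runs, the 6 marked pairs with lowest r at 20 RPKM or more, the 4 smallest gaps, 4 pairs on either side of 1000 nt, C. elegans operons, and up to 2 marked pairs per gene group; not all are described. The rule for like texts was chosen after the data were seen.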

Additional observations from a re-analysis of the deposited data

How the results depend on the processing

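The median r of marked pairs exceeded that of distant pairs in each of 25 alternatives. Its difference from unmarked pairs, -0.145, was -0.366 with median-of-ratios scaling, -0.0205 with pairs of the same text left out, -0.0232 without testis and embryo, and reversed to 0.0189 in pairs with 2 informative unlike texts; the cause was not tested. The 568 pairs became 129, 276 and 1172 with gaps of up to 200, 500 and 2000 nt, 332 without pairs of the same text and 145 with unlike texts. The marked share of 23.1% was 17.8% at 200 nt, 32.8% at 2000 nt, 30.1% with the longest transcript of each gene, 29.0% with gaps between full gene spans, 31.9% without the same texts and 40% with unlike texts; with the longest transcript and with full spans the distant share was 40.9% and 39.1%. The 202 enrichment calls were 34, 80 and 408 at 200, 500 and 2000 nt, 126 without the same texts, 35 with unlike texts, 129 with a pseudocount of 5 and 112 without testis. The 28 broad-group genes in marked pairs were 4, 12 and 72 at those gaps and 47 with full spans. The 1 pair found in the look-up of C. elegans operons by name became 0 at 200 nt, at 500 nt and with the longest transcript. Of 47 named pairs, r changed sign in 17 when any 1 tissue was left out, and in 12 without ovary. Of those with r of at least 0.8, it fell to -0.045 in PgR117X_g010 and PgR117X_g011 without ovary, and to -0.245 in PgR081_g021 and PgR081_g020 under median-of-ratios scaling. The r of PgR023_g107 and PgR023_g108, 0.905 in the main setting, was 0.079 at its lowest. Full spans, unlike texts, testis and embryo left out together, and overlapping genes left out were added after the data were seen. No paired analysis was possible because each tissue has 1 library. The 5 points per pair and unknown counting of shared reads limit every r, and the embryo library, the shallowest, limits low levels most.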
